A study of Homo sapiens with 6 samples.

Results

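The 32 genes described here encode enzymes and membrane proteins of the lysosome, together with TFEB, a transcription factor that drives their expression. They were named by symbol and measured in Huh7 cells, an established human hepatoma line, on Affymetrix U133 Plus 2.0 arrays, which read RNA abundance with groups of short oligonucleotides called probe sets. A probe set belonged to a gene if its annotation gave that symbol alone. This left 89 of 54613 probe sets for the 32 genes, out of 21299 genes with such a probe set. Each gene was read at its brightest probe set, the one with the highest mean log2 value over the 6 arrays, and all other probe sets of a gene were kept for comparison.

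All cells were grown for 24 h in medium with 10% fetal bovine serum. The statin group received 5 µM of a statin, which blocks cholesterol synthesis, to lower cell cholesterol. The nLDL group received 120 µg/ml native low-density lipoprotein, to load the cells with cholesterol, and the control group received vehicle. Each group had 2 arrays, described as biological replicates of this single line. Cell cholesterol, enzyme activity and protein were not measured on these arrays, and the serum in every group also carries lipoproteins.

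The lysosome is the cell's digestive compartment, and it breaks down sugars, proteins and lipids alike. Esterified cholesterol is one of its substrates: LIPA hydrolyses the ester, and the carrier NPC2 with the membrane protein NPC1 moves the sterol onward. Lysosomal hydrolases are made in the endoplasmic reticulum, tagged with mannose 6-phosphate in the Golgi and sorted to the lysosome, where an acid pH kept by the V-ATPase lets them work. TFEB and its relatives TFE3 and MITF bind a palindrome built on the E-box CACGTG before many of these genes. Nutrient sensing by mTORC1 on the lysosome surface holds TFEB in the cytoplasm, so that its activity is set largely at the protein level.

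The 6 arrays had median log2 values of 4.84 to 4.91. All 9 hepatocyte or hepatoma markers lay above the dimmest 40% of probe sets (log2 4.23), with a mean of 13.36 to 13.38 on the statin arrays, 13.29 to 13.35 on the nLDL arrays and 13.30 to 13.31 on the control arrays. Means over the macrophage, T and B cell, endothelial and fibroblast or stellate lists lay between 4.69 and 6.14, where 6 of their 18 genes fell within the dimmest 40%. CD3D, a T cell gene, was the one of the 18 that passed with statin, at 6.82 and 6.82 on the statin arrays, 6.14 and 6.38 on the nLDL arrays and 6.12 and 6.28 on the control arrays (limma adjusted p = 0.033), and none passed with nLDL. The gap between the 3′ and 5′ control probe sets of ACTB, a sign of RNA quality, was 2.13 and 1.92 on the statin arrays, 1.62 and 1.54 on the nLDL arrays and 1.63 and 1.64 on the control arrays. That of GAPDH stayed between 0.02 and 0.10 on every array. The statin arrays therefore stood apart in the ACTB gap, and its part in the statin differences below was not tested. HMGCS1, SQLE and INSIG1, genes of the sterol response, were each higher with statin than with nLDL (3 of 3 passed), by 0.90, 0.84 and 1.42 (limma adjusted p = 0.023, 0.0074 and 0.0036). Against control none of the 3 passed, at 0.40, 0.42 and 0.56 with statin (limma adjusted p = 0.18, 0.058 and 0.054) and at -0.50, -0.42 and -0.86 with nLDL (limma adjusted p = 0.80 for each).

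Promoter sequence was read because TFEB and its relatives bind the palindrome described above before many lysosomal genes. The RefSeq table of promoters (GRCh38.p14, 250 bases before to 50 after each start) held 22 of the 32 genes with 33 start sites, and the other 10 were not read. The core CACGTG, which reads the same on both strands, stood in 7 of the 33 promoters (21.2%), each of a different gene: ARSB, CD63, CTSA, CTSD, LAMP1, MCOLN1 and NEU1. Of all 35116 promoters of the same length, 7.26% held it. The longer TCACGTGA, which contains the core, stood in 3 of the 33 (9.09%; CTSA, LAMP1 and MCOLN1) and in 0.98% of all promoters. With a G before and a C after it, the full palindrome known as the CLEAR element, it stood in MCOLN1 alone (3.03%, against 0.353% of all). One fixed spelling of the sterol response element bound by SREBP, searched on both strands, was in none of the 33 and in 16 of all 35116 promoters (0.0456%). A string this rare would hardly occur in 33 promoters, and other spellings were not searched, so its absence cannot show that they lack such an element. A match is a description of the letters and was not tested as a binding site.

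The stretches below were chosen because they hold the longer TCACGTGA (MCOLN1, LAMP1, CTSA) or belong to the genes with a core whose differences were largest (CTSD and ARSB with statin, NEU1 with nLDL). Capitals mark the match, each reads 5′ to 3′ along the gene, and all lie before the start site except the second LAMP1 match, which spans it.
MCOLN1, chr19:7522562-7522623, plus strand: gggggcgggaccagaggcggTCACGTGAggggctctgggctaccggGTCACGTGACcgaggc
LAMP1, chr13:113297190-113297244, plus strand: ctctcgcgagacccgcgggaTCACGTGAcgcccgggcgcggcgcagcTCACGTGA
CTSA, chr20:45891273-45891334, plus strand: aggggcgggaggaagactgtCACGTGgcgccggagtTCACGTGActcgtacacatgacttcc
CTSD, chr11:1763949-1763994, minus strand: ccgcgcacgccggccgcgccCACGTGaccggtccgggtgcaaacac
ARSB, chr5:78986093-78986138, minus strand: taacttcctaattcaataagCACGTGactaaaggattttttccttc
NEU1, chr6:31862922-31862967, minus strand: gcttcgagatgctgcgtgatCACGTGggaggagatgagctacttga
The LAMP1 promoter held 6 cores in all, of which the 2 in capitals above are in the longer form, and MCOLN1 held both of its cores in that form.

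Under statin the 32 genes showed no shared direction and small differences. The lowest were those of the proteases CTSC, CTSZ (whose statin arrays disagreed) and CTSH, and the highest those of the protease CTSD and the sulfatase ARSB. None of the 32 passed the limma test at the brightest probe set (adjusted p under 0.05 over all 54613 probe sets), while 799 of 21299 genes did (3.75%). At an unadjusted p under 0.05 there were 5 of 32 (CTSC, CTSH, ARSB, CTSD and TPP1), against 21.9% of all genes, and the methods' t-test with its fold of 1.1 took 3 of 32 (CD63, CTSC and CTSH), against 14.8%. The median difference was 0.04 over the 32 genes and 0.02 over all genes, with 20 higher and 12 lower, and the median size of a difference was 0.13 and 0.12. The differences ran from -0.38 (CTSC) to 0.37 (CTSD). Both statin arrays lay above both controls for 16 of the 32 genes (30.3% of all genes) and below both for 7 (25.1% of all genes). At the brightest probe set the 95% interval of the fit excluded a change of 1.5-fold in either direction for 29 of the 32, and 88.8% of all genes. It excluded a 2-fold change for every gene but CTSZ. These exclusions hold for that probe set only: CTSC is among the 29, yet 2 of its dimmer probe sets fell by 0.62 and 0.79, beyond 1.5-fold.

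**Figure D1:**
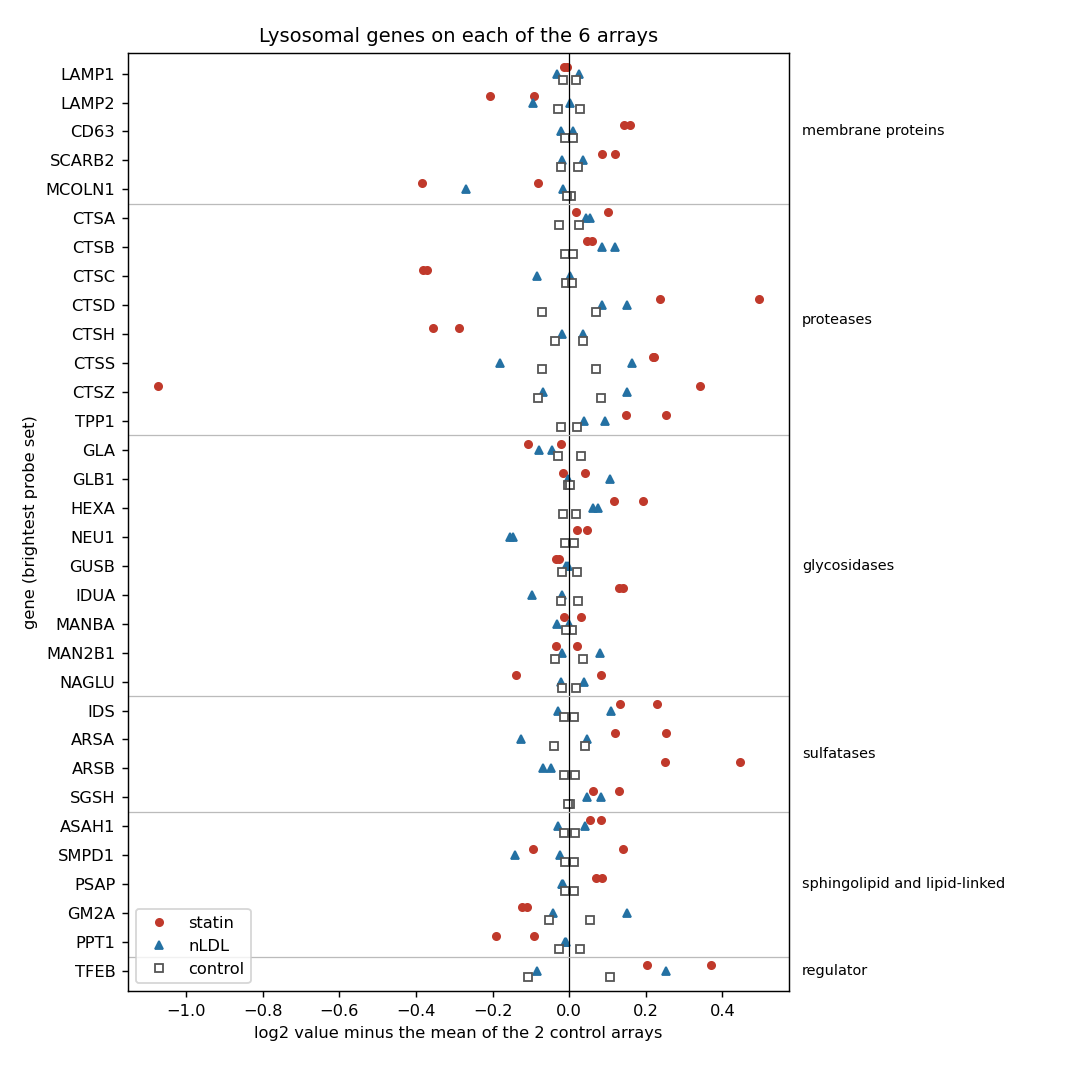
Log2 value of each of the 32 lysosomal genes on each array at its brightest probe set, minus the mean of the 2 control arrays, ordered by role; circles are statin, triangles nLDL and squares control. Most points lie within 0.2 of the control mean, CTSC and CTSH are low on both statin arrays, and CTSZ has its 2 statin arrays at -1.07 and 0.34.

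Native LDL left the 32 genes closer to control still. With nLDL none of the 32 passed the limma test, nor did any of the 21299 genes (0%), and at an unadjusted p under 0.05 there were again none of the 32, against 5.17% of all genes. The methods' t-test took 1 of 32 (NEU1), against 3.2% of all genes. The median difference over the 32 was 0.00, with 16 higher and 16 lower, in a range from -0.15 (NEU1) to 0.12 (CTSD). Their median size was 0.04, against 0.06 over all genes. Both nLDL arrays lay above both controls for 6 of the 32 genes (17.7% of all genes) and below both for 6 (18.1%). The 95% interval excluded a 1.5-fold change for 31 of the 32, all but CTSZ, and a 2-fold change for all 32. The statin and nLDL comparisons use the same 2 control arrays and are set side by side here without a measure of likeness. With 2 arrays a group, the smallest two-sided p of an exact permutation test is 0.333, so none was run.

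Set directly against each other, statin and nLDL cells differed most in ARSB, CTSC and CTSH among the 32 genes, apart from CTSZ, whose difference of -0.41 had an SE of 0.39 and ran from -1.12 to 0.30 with 1 array left out. None passed the limma test at the brightest probe set, against 3.51% of all genes, and 5 of 32 (CTSC, CTSH, ARSB, NEU1 and IDUA) had an unadjusted p under 0.05, against 19.2%. The methods' t-test took 5 of 32 (CD63, CTSC, CTSH, NEU1 and IDUA), against 12.1%. The median difference was 0.03 (0.01 over all genes) in a range from -0.41 (CTSZ) to 0.41 (ARSB). Both statin arrays lay above both nLDL arrays for 13 of the 32 (26.5% of all genes) and below both for 6 (23.5%).

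**Figure D2:**
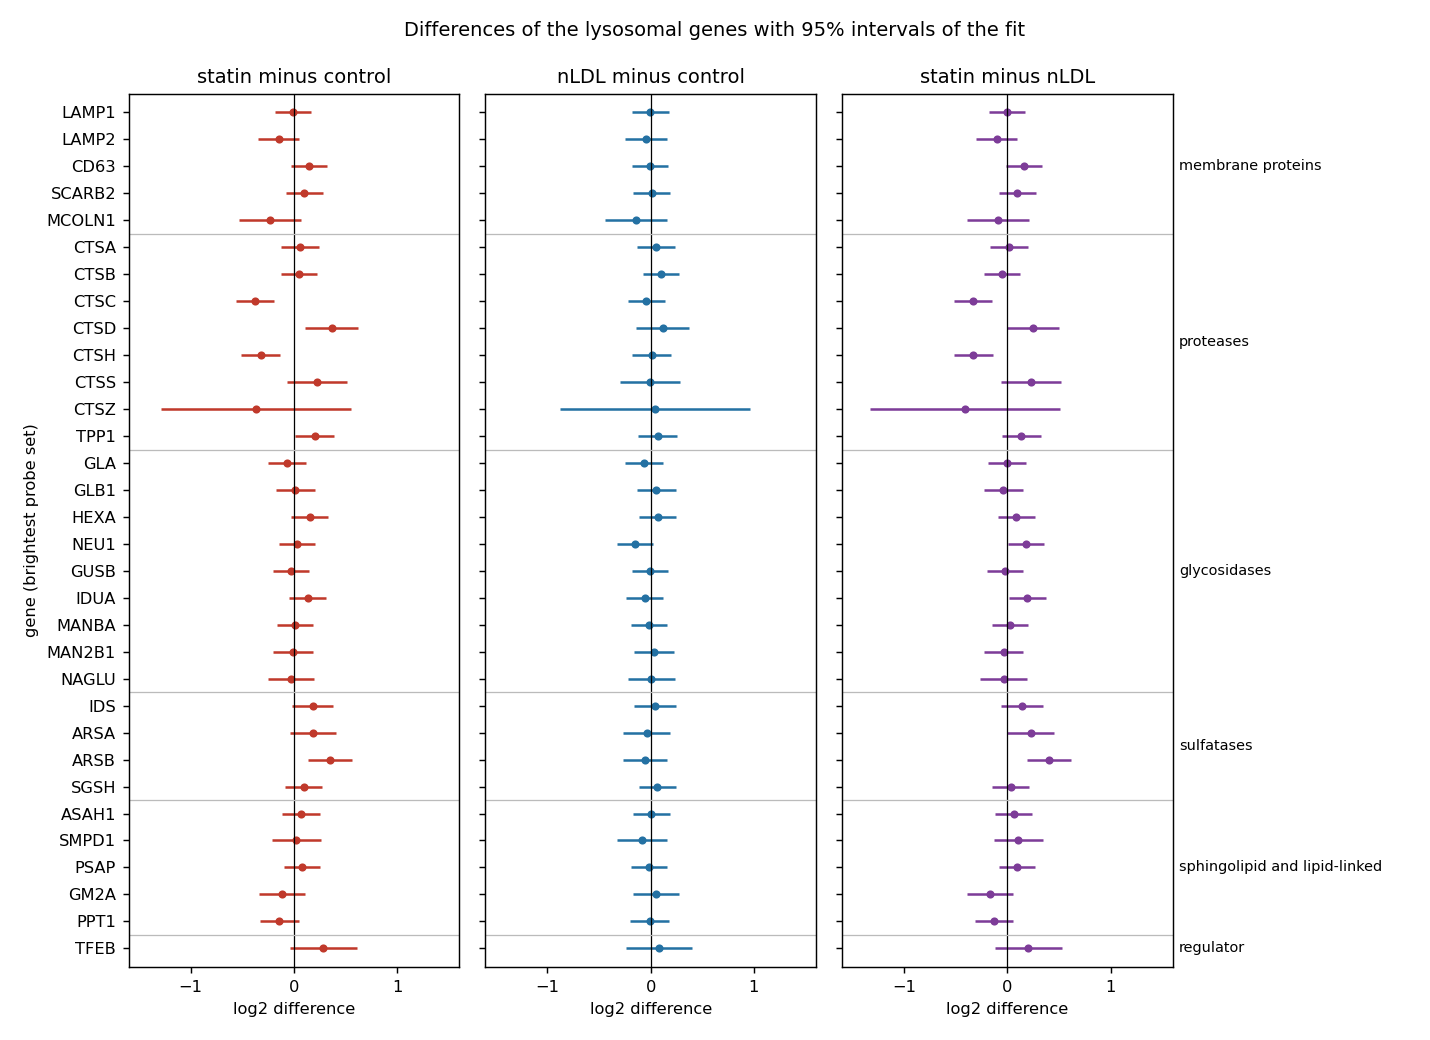
Difference in log2 value for each of the 32 lysosomal genes at its brightest probe set, with the 95% interval of the limma fit (bars), for statin minus control, nLDL minus control and statin minus nLDL. The intervals of CTSC, CTSH, CTSD, ARSB and TPP1 leave out 0 in the statin panel, none does in the nLDL panel, and that of CTSZ is the widest in each.

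None of the 5 membrane proteins passed in any comparison. The median size of their difference was 0.15 with statin and 0.01 with nLDL, against 0.12 and 0.06 over all genes. LAMP1, an abundant glycoprotein that lines the lysosome and is used as its marker, lay at 12.08 and 12.07 on the statin arrays, 12.11 and 12.05 on the nLDL arrays and 12.07 and 12.10 on the control arrays. All 6 values fell within 0.06 of each other and the groups overlapped. Its statin difference of -0.01 had a 95% interval from -0.19 to 0.17, and its nLDL difference of -0.0043 one from -0.18 to 0.17. The other 3 LAMP1 probe sets differed by 0.01 to 0.10 with statin.

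MCOLN1, a channel that releases calcium from the lysosome, lay at 6.74 and 7.04 on the statin arrays, 6.85 and 7.11 on the nLDL arrays and 7.13 and 7.12 on the control arrays. Both treated groups lay below both controls, but the 2 arrays of each treated group lay further apart than their mean did from the controls. The difference was -0.23 with statin (95% interval -0.54 to 0.07, limma adjusted p = 0.38) and -0.14 with nLDL (-0.44 to 0.16, limma adjusted p = 0.93). MCOLN1 had 1 probe set, and its promoter is the one with the full palindrome.

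CD63, a tetraspanin of lysosomes and exosomes, lay at 12.90 and 12.92 on the statin arrays, 12.74 and 12.77 on the nLDL arrays and 12.75 and 12.77 on the control arrays. Both statin arrays stood above the other 4, by 0.15 relative to control (SE 0.07, limma adjusted p = 0.33). SCARB2, a membrane protein that carries cargo to the lysosome, differed by 0.10 with statin and 0.01 with nLDL at its brightest probe set, and 2 of its 4 probe sets were lower with statin. LAMP2, which serves chaperone-mediated and other autophagy, differed by -0.15 with statin at the brightest probe set (SE 0.08). It differed by -0.46 (SE 0.10, limma adjusted p = 0.062) and by -0.12 (SE 0.08) at the next 2. At the dimmest it differed by 0.11 (SE 0.08), so that 3 of its 4 probe sets were lower with statin and 1 was higher.

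The 8 proteases held the widest spread of the 32 genes. The median size of their statin difference was 0.27, and 4 of the 8 differed by more than 0.3 against 12.8% of all genes. CTSC and CTSH were low on both statin arrays, CTSD was high on both, and the statin arrays of CTSZ disagreed.

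CTSC encodes cathepsin C, an aminopeptidase that activates serine proteases of immune cells. At the brightest probe set it lay at 11.20 and 11.19 on the statin arrays, 11.58 and 11.49 on the nLDL arrays and 11.57 and 11.58 on the control arrays. The 2 statin arrays were the lowest of the 6 and almost equal, while nLDL and control overlapped. The statin difference was -0.38 (SE 0.08, 95% interval -0.56 to -0.20), the smallest adjusted p of the 32 genes, just above the threshold (limma adjusted p = 0.056). That of nLDL was -0.04 (SE 0.08, limma adjusted p = 0.98).

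CTSC is the one gene of the 32 whose other probe sets passed against control. The third brightest set lay at 8.23 and 8.22 on the statin arrays, 9.13 and 8.92 on the nLDL arrays and 9.02 and 9.01 on the control arrays. It fell by 0.79 with statin relative to control (SE 0.09, limma adjusted p = 0.012) and was lower by a difference of -0.80 relative to nLDL (SE 0.09, limma adjusted p = 0.011). The second brightest set lay at 9.74 and 9.83 on the statin arrays, 10.48 and 10.45 on the nLDL arrays and 10.42 and 10.38 on the control arrays. It fell by 0.62 with statin (SE 0.08, limma adjusted p = 0.015), and its statin minus nLDL difference was -0.68 (SE 0.08, limma adjusted p = 0.011). The fourth set, dimmer and with control arrays 0.43 apart, differed by -0.53 (limma adjusted p = 0.10). All 4 CTSC probe sets had both statin arrays below the other 4 arrays. Both passing sets kept their direction with any array left out. Against control, each lost the call when either statin array or either control array was left out. Over nLDL, the third brightest set lost the call without either statin array or nLDL replicate 1. The second brightest lost it without statin replicate 1 or either nLDL array. Fewer of all genes passed in these fits too. With 1 array left out, the third brightest set differed by -0.80 to -0.78 against control and by -0.90 to -0.70 against nLDL. The second brightest differed by -0.66 to -0.57 and by -0.72 to -0.63. With the 4 probe sets averaged, CTSC differed by -0.58 with statin (limma adjusted p = 0.0068) and by -0.60 between statin and nLDL (limma adjusted p = 0.0056). In all, 2 of the 89 probe sets passed for statin minus control, against 2.62% of all probe sets, and 3 passed for statin minus nLDL, against 2.44%.

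CTSH, cathepsin H, an aminopeptidase with 1 probe set, lay at 7.85 and 7.91 on the statin arrays, 8.24 and 8.18 on the nLDL arrays and 8.16 and 8.24 on the control arrays. Its pattern was that of CTSC, with the statin arrays lowest and the other groups overlapping. It differed by -0.32 with statin (SE 0.08, 95% interval -0.51 to -0.13, limma adjusted p = 0.091) and by 0.01 with nLDL (-0.18 to 0.20).

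CTSD, the aspartyl protease cathepsin D, lay at 8.50 and 8.76 on the statin arrays, 8.35 and 8.41 on the nLDL arrays and 8.33 and 8.19 on the control arrays. The groups did not overlap, with statin highest and nLDL between. The difference was 0.37 with statin (SE 0.11, 95% interval 0.11 to 0.62, limma adjusted p = 0.14) and 0.12 with nLDL (-0.14 to 0.37, limma adjusted p = 0.93). CTSD had 1 probe set and its promoter holds a single core.

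CTSZ, the carboxypeptidase cathepsin Z, lay at 8.31 and 9.73 on the statin arrays, 9.32 and 9.54 on the nLDL arrays and 9.47 and 9.30 on the control arrays. One statin array was the lowest of the 6 and the other the highest. Their gap of 1.41 was the largest between the statin arrays among all 21299 genes, and the statin difference of -0.37 carried an SE of 0.39 (limma adjusted p = 0.67). It became 0.34 without statin replicate 1 and -1.07 without statin replicate 2. The other CTSZ probe set lay at 5.66 and 5.63 on the statin arrays, 5.63 and 5.75 on the nLDL arrays and 5.69 and 5.61 on the control arrays, and showed no such gap.

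CTSB, the cysteine protease cathepsin B, lay at 11.21 and 11.20 on the statin arrays, 11.27 and 11.24 on the nLDL arrays and 11.16 and 11.14 on the control arrays. Each treated group lay just above the controls, by 0.05 with statin (95% interval -0.12 to 0.23) and by 0.10 with nLDL (-0.07 to 0.28). Its other 4 probe sets were lower with statin, down to -0.28 (limma adjusted p = 0.16), so that the direction under statin depends on the probe set.

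The remaining 3 proteases did not pass in any comparison. TPP1, a tripeptidyl peptidase, differed by 0.20 with statin (SE 0.08, 95% interval 0.01 to 0.39, limma adjusted p = 0.24) and by 0.07 with nLDL, though 1 of its 4 probe sets was lower with statin. CTSS, cathepsin S of antigen-presenting cells, differed by 0.22 (SE 0.12, limma adjusted p = 0.38) and -0.01. CTSA, the carboxypeptidase that shields NEU1 and GLB1 in a complex, differed by 0.06 (SE 0.08) and 0.05.

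**Figure D3:**
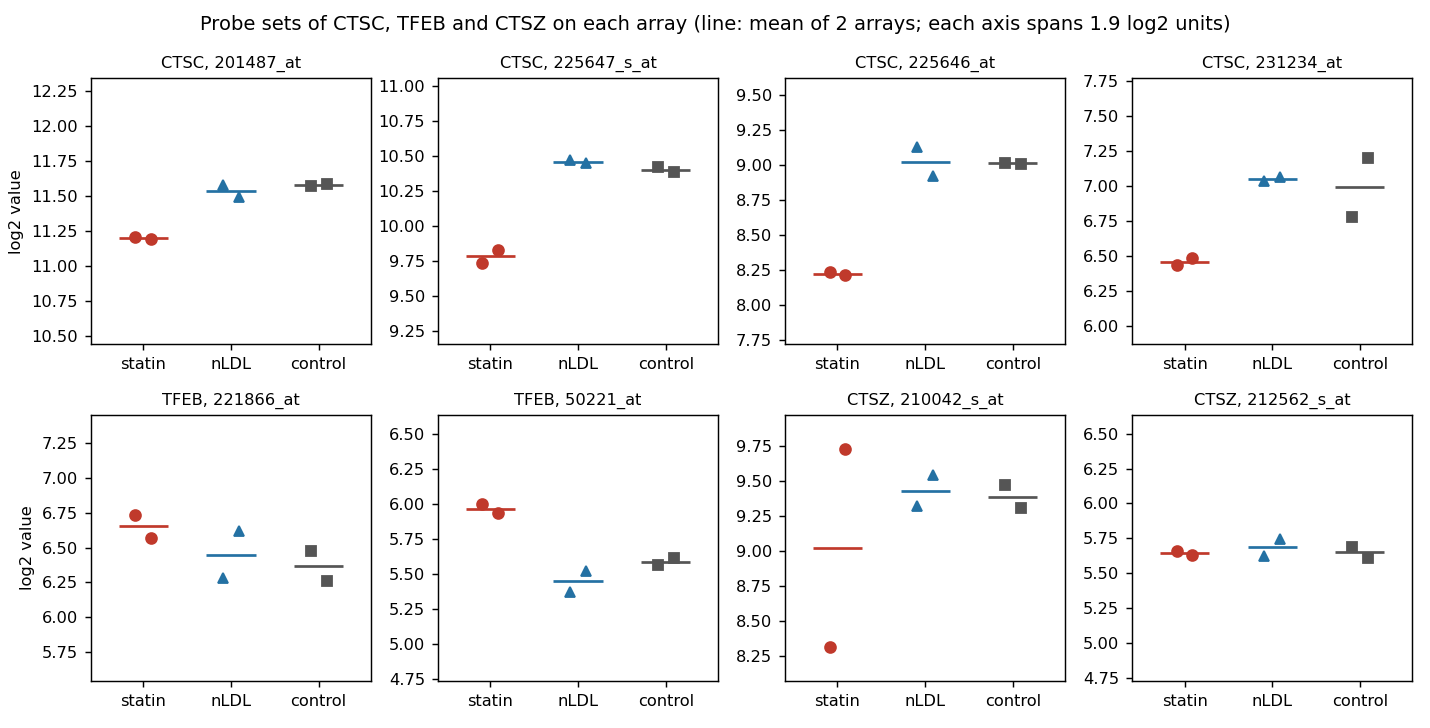
Log2 values of each CTSC, TFEB and CTSZ probe set on the 6 arrays, by group; the line is the mean of 2 arrays and every axis spans 1.9 log2 units. The statin arrays lie lowest in all 4 CTSC panels and highest in the panel of the dimmer TFEB probe set, and they part only at the brighter CTSZ probe set.

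The 9 glycosidases, which strip sugars from glycolipids, glycoproteins and glycosaminoglycans, had the smallest median size of a statin difference among the groups, 0.03. Their statin differences ran from -0.07 (GLA) to 0.16 (HEXA), with a median of 0.01. Their nLDL differences ran from -0.15 (NEU1) to 0.07 (HEXA), with a median size of 0.05, against 0.06 over all genes. The 95% intervals of all 9 excluded a 1.5-fold change in each comparison.

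NEU1, the sialidase that removes terminal sialic acids, lay at 9.68 and 9.65 on the statin arrays, 9.49 and 9.48 on the nLDL arrays and 9.65 and 9.62 on the control arrays. Both nLDL arrays stood below the other 4. The nLDL difference of -0.15 (SE 0.07, 95% interval -0.32 to 0.02) had an unadjusted p of 0.081 in limma, the smallest of the 32 genes for nLDL, and an adjusted p of 0.83. Against nLDL the statin arrays were higher by 0.18 (limma adjusted p = 0.28), and against control the statin difference was 0.03. NEU1 had 1 probe set and a promoter with a single core.

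IDUA, which cuts iduronic acid from heparan and dermatan sulfate, differed by 0.13 with statin and by -0.06 with nLDL, and by 0.19 between statin and nLDL (SE 0.08, limma adjusted p = 0.28). HEXA, the alpha subunit of the enzyme missing in Tay-Sachs disease, differed by 0.16 and 0.07, but 3 of its 4 probe sets were lower with statin, down to -0.17. GLA, GLB1, GUSB, MANBA, MAN2B1 and NAGLU, which cut galactose, glucuronic acid, mannose and N-acetylglucosamine, all lay within 0.07 of control in both treatments.

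All 4 sulfatases, which remove sulfate groups, lay higher with statin at the brightest probe set, as did 55.4% of all genes. Both statin arrays lay above both controls for each of the 4 (30.3% of all genes), though none passed the test. Their median statin difference was 0.18 and their median nLDL difference 0.00. ARSB, which acts on dermatan and chondroitin sulfate, lay at 6.84 and 7.03 on the statin arrays, 6.52 and 6.54 on the nLDL arrays and 6.60 and 6.57 on the control arrays. The statin arrays were highest and did not overlap with either group. The difference was 0.35 with statin (SE 0.09, 95% interval 0.13 to 0.56, limma adjusted p = 0.10), -0.06 with nLDL (-0.27 to 0.15) and 0.41 between statin and nLDL (SE 0.09, limma adjusted p = 0.076).

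The other 3 ARSB probe sets were also higher with statin, by 0.53 at the brightest of them (limma adjusted p = 0.077) and by 0.16 at each of the other 2, which lie within the dimmest 40%. ARSA, which acts on sulfatide, differed by 0.19 with statin (SE 0.10, limma adjusted p = 0.35) and -0.04 with nLDL. IDS, which acts on heparan and dermatan sulfate, differed by 0.18 and 0.04, and 8 of its 10 probe sets were higher with statin, where only 4 of the 10 lay above the dimmest 40%. SGSH, which acts on heparan sulfate, differed by 0.10 and 0.06. The brightest sets of ARSB and IDS are of the _x_at type, whose probes can also match other transcripts.

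The sphingolipid and lipid-linked genes differed by at most 0.14 in size with statin and 0.08 with nLDL. PSAP, the precursor of the saposins that lift lipids out of membranes for the hydrolases, lay at 12.49 and 12.47 on the statin arrays, 12.39 and 12.39 on the nLDL arrays and 12.39 and 12.42 on the control arrays. The statin arrays stood above the other 4 by a small margin. The difference was 0.08 with statin (95% interval -0.09 to 0.25, limma adjusted p = 0.61) and -0.02 with nLDL (-0.19 to 0.16), and PSAP had the least spread among its replicates of the named genes, less than all but 0.732% of all genes.

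ASAH1, acid ceramidase, differed by 0.07 with statin and 0.01 with nLDL, and its brightest set is also of the _x_at type. The direction of ASAH1 under statin depends on the probe set, as 4 of its 5 were lower, down to -0.17. SMPD1, acid sphingomyelinase, differed by 0.02 and -0.08, and GM2A, the activator that presents GM2 ganglioside to hexosaminidase, by -0.12 and 0.05. PPT1, which removes palmitate from proteins, differed by -0.14 and -0.01. The 7 GM2A probe sets ran from -0.30 to 0.28 with statin and shared no direction.

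TFEB, the regulator, lay at 6.73 and 6.57 on the statin arrays, 6.28 and 6.62 on the nLDL arrays and 6.47 and 6.26 on the control arrays at its brightest probe set. Both statin arrays were above both controls, and the nLDL group overlapped with both. The difference was 0.29 with statin (SE 0.14, 95% interval -0.04 to 0.61, limma adjusted p = 0.32) and 0.08 with nLDL (-0.24 to 0.40, limma adjusted p = 0.98). Its dimmer probe set lay at 5.997 and 5.932 on the statin arrays, 5.37 and 5.52 on the nLDL arrays and 5.56 and 5.61 on the control arrays. There the statin arrays were highest, by 0.52 over nLDL (SE 0.09, limma adjusted p = 0.032) and by 0.38 over control (SE 0.09, limma adjusted p = 0.075). With any 1 of the 6 arrays left out the first of these no longer passed (differences from 0.44 to 0.60), in fits where fewer of all genes passed too.

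The genes with a core in the promoter are described beside those without. The 7 with a core had a median statin difference of 0.06, in a range from -0.23 (MCOLN1) to 0.37 (CTSD), with 5 higher. The 15 with a promoter and no core had a median of -0.01, in a range from -0.38 (CTSC) to 0.29 (TFEB), with 7 higher. For nLDL the medians were -0.01 and 0.01. For statin minus nLDL they were 0.16 and -0.03, with 5 of the 7 and 6 of the 15 higher, against 53.6% of all genes. The ranges there were -0.09 to 0.41 and -0.41 to 0.20, and the 2 sets were not tested against each other. LAMP1, with 6 cores, differed by -0.01 with statin and -0.0043 with nLDL, and MCOLN1 and CTSA, with 2 cores each, had statin differences of -0.23 and 0.06.

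Replicate arrays of the 32 genes lay close together. The median gap between the 2 arrays of a group was 0.07 for statin, 0.06 for nLDL and 0.04 for control, against 0.10, 0.09 and 0.08 over all genes, and none of the 32 brightest probe sets fell within the dimmest 40%. Of the 89 probe sets, 13 did. Of the 21 genes with several probe sets, 9 had all of them on one side of control with statin.

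Other genes of the lysosome were counted in lists that do not overlap with the 32. Of 26 further lysosomal hydrolases, 2 rose with statin and none fell, where 317 of all 21299 genes rose and 482 fell, with a median difference of 0.07. CTSO, cathepsin O, lay at 8.37 and 8.27 on the statin arrays, 7.62 and 7.93 on the nLDL arrays and 7.60 and 7.77 on the control arrays. It rose by 0.64 (SE 0.12, limma adjusted p = 0.048). SIAE, a sialic acid esterase, lay at 9.70 and 9.67 on the statin arrays, 9.02 and 9.23 on the nLDL arrays and 9.10 and 9.09 on the control arrays. It rose by 0.59 with statin (SE 0.09, limma adjusted p = 0.027) and was also higher with statin than with nLDL, by 0.56 (limma adjusted p = 0.030). For both genes the statin arrays were the highest of the 6. CTSO lost its call against control with any array left out (differences from 0.55 to 0.72), and SIAE with either statin or either control array left out (0.57 to 0.60). Over nLDL SIAE lost it with any array left out (0.46 to 0.66). Fewer of all genes passed in these fits too. Averaged over its probe sets, SIAE differed by 0.25 with statin (limma adjusted p = 0.062). At an unadjusted p under 0.05 in limma there were 9 of the 26 for statin, against 21.9% of all genes, and 11 for statin minus nLDL, against 19.2%. With nLDL none of the 26 passed, nor had any an unadjusted p under 0.05.

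LIPA, the acid lipase that splits the cholesterol esters of LDL, lay at 10.20 and 10.18 on the statin arrays, 9.73 and 9.93 on the nLDL arrays and 9.92 and 9.93 on the control arrays. The statin arrays were highest, by 0.26 over control (SE 0.09, limma adjusted p = 0.19) and 0.35 over nLDL (limma adjusted p = 0.11), and the nLDL difference was -0.09 (SE 0.09, limma adjusted p = 0.94). NPC1, the membrane transporter for free cholesterol, lay at 10.12 and 10.19 on the statin arrays, 9.73 and 9.82 on the nLDL arrays and 9.94 and 9.94 on the control arrays. The 3 groups did not overlap, with statin highest and nLDL lowest, at 0.22 with statin (SE 0.08, limma adjusted p = 0.21), -0.17 with nLDL (SE 0.08, limma adjusted p = 0.82) and 0.39 between them (limma adjusted p = 0.062). NPC2, its soluble partner, lay at 10.88 and 10.80 on the statin arrays, 10.72 and 10.68 on the nLDL arrays and 10.78 and 10.74 on the control arrays. Again the groups did not overlap, in the same order as NPC1, and the differences were smaller. It differed by 0.08 with statin, -0.06 with nLDL and 0.14 between them (SE 0.08 each). Of all genes, 30.3% had both statin arrays above both controls and 26.5% had them above both nLDL arrays. Both nLDL arrays lay below both controls for 18.1%. The share of all genes with this order of the 3 groups was not counted. INSIG1, an endoplasmic reticulum protein that retains SREBP and reports the sterol response, lay at 10.33 and 10.50 on the statin arrays, 8.87 and 9.13 on the nLDL arrays and 9.83 and 9.89 on the control arrays, in the same order with a wider spread. Its statin minus nLDL difference was 1.42 (limma adjusted p = 0.0036).

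None of the 19 genes of cholesterol exit and lysosomal transport, the 16 V-ATPase subunits, the 15 genes of mannose 6-phosphate sorting, the 17 MiT family and nutrient-sensing genes or the 14 autophagy genes passed in any of the 3 comparisons. At an unadjusted p under 0.05 in limma the statin counts were 3 of 19, 2 of 16, 5 of 15, 2 of 17 and 3 of 14, against the 21.9% of all genes given above, the statin minus nLDL counts were 3, 2, 5, 4 and 2 in the same order, against 19.2%, and the nLDL counts were 0 in each list. Their median statin differences ran from 0.00 (V-ATPase subunits) to 0.11 (autophagy) and their median nLDL differences from -0.02 to 0.01. TFE3, the relative of TFEB, differed by -0.03 with statin (SE 0.08) and -0.09 with nLDL (SE 0.08), and RRAGD, a GTPase that ties mTORC1 to the lysosome, by -0.24 with statin (SE 0.09, limma adjusted p = 0.22) and 0.16 with nLDL (SE 0.09, limma adjusted p = 0.85).

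**Figure D4:**
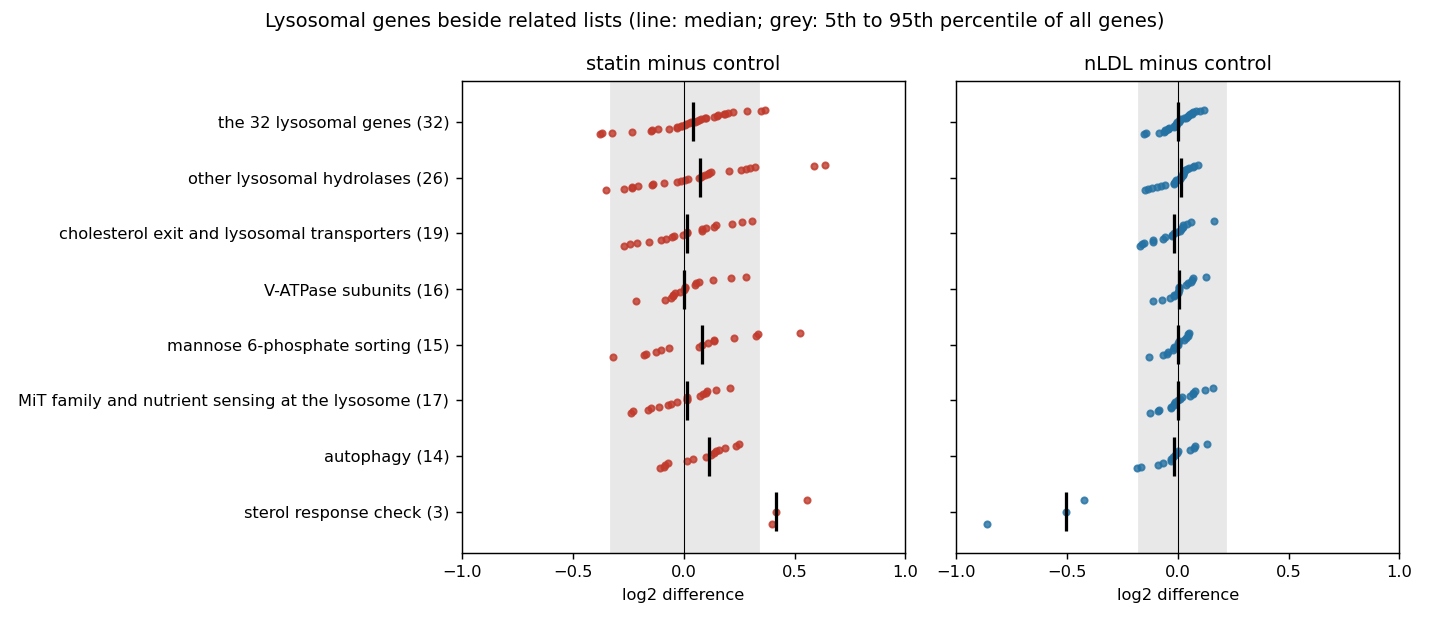
Difference in log2 value of each gene (points) in the 32 lysosomal genes and in the related lists, for statin minus control and nLDL minus control, with the median of each list (line) and the 5th to 95th percentile of all 21299 genes (grey, -0.33 to 0.34 for statin and -0.17 to 0.22 for nLDL). The lysosomal lists centre near 0 in both panels, while all 3 sterol response genes lie to the right with statin and to the left with nLDL.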

How the data were processed

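RNA of 6 Huh7 cultures was read on U133 Plus 2.0 arrays. The authors processed the scans with GeneSpring GX 11.5 and robust multi-array averaging, and deposited 1 log2 value per probe set and array. No genome build applies to these values. They were taken from the series table, whose columns carry sample names. The other deposited table served for probe set annotation only. Its 6 value columns match no sample label and were not used, although all 54675 probe sets hold the same sorted values in both tables.

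Tests covered the 54613 probe sets that are not array controls (62 are). A single gene symbol was given for 43383 of them, more than 1 for 1663 and none for 9567. Current symbols came from the Entrez numbers and a RefSeq table of GRCh38.p14, with 42702 matched and 681 kept as in the file. One limma model (limma 3.58.1, R 4.3.3, lmFit then eBayes, two-sided tests) with a mean for each of the 3 groups used all arrays and had 3 residual and 4.08 prior degrees of freedom. Benjamini-Hochberg adjustment ran over every probe set, with a threshold of 0.05. The methods' t-test (unadjusted p of at most 0.05, fold of at least 1.1) was run beside it. The procedure was tested on simulated data. Arrays give no counting depth, and their number limits the precision.

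The members and lists were chosen with earlier results of these data known. Values on every array are given for members past the threshold, the 4 largest differences of each comparison, and LAMP1, CTSD, PSAP and TFEB, and in other lists for up to 4 passing genes and LIPA, NPC1, NPC2 and INSIG1. CD63, CD3D and the dimmer probe sets of CTSC, TFEB and CTSZ were added after their values were seen. Each result was recomputed with a term for the replicate number, with a further quantile normalization, with median-centred arrays, without the dimmest 40% of probe sets (below log2 4.23), with a limma prior that is robust and follows intensity, with the 2 compared groups only, with the methods' t-test, with a minimum fold of 1.5, with a gene's probe sets averaged, and with each array left out. Some genes are not reported here.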

Additional observations from a re-analysis of the deposited data

How the results depend on the processing

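At the brightest probe set none of the 32 genes passed in any comparison, and this count changed with the centring, the filter, the prior, the test and the choice of probe set. For statin minus control it was 1 (CTSC, limma adjusted p = 0.042) with each array centred on its median (4.16% of all genes), 2 (CTSC and CTSH) without the dimmest 40% of probe sets (9.73%), 6 with a trended and robust prior (13.2%), 3 under the methods' t-test at its thresholds (14.8%), and 2 (CTSC and CTSH) with the mean over all probe sets of a gene (6.61%). For statin minus nLDL it was 3 (CTSC, CTSH and ARSB) without the dimmest 40% (8.61% of all genes), 4 with the trended and robust prior (12.1%), 5 under the methods' t-test (12.1%) and 2 with the mean over probe sets (5.96%). For nLDL it was 1 (NEU1) under the methods' t-test alone (3.2%). After adjustment that test passed none of the 32 in any comparison. It then passed 0 of all 21299 genes for statin, 0 for nLDL and 2 for statin minus nLDL (0.00939%). Its count of the 32 is therefore not read as a result about them. Leaving out 1 array leaves 1 array in a group, and fewer of all genes passed in every such fit for statin and for statin minus nLDL. Counts of the 32 genes from those fits are therefore not read as results. Without statin replicate 2, CTSZ differed by -1.12 between statin and nLDL. Of 107 genes in the other lysosomal lists, 2 passed for statin and 1 for statin minus nLDL, against 3.75% and 3.51% of all genes. Without the dimmest 40% these were 9 and 9 of 105, against 9.73% and 8.61%. The trended and robust prior took 23 and 22 of the 107, against 13.2% and 12.1%. The methods' t-test took 22 and 19, against 14.8% and 12.1%, and the mean over probe sets 6 and 9, against 6.61% and 5.96%. For nLDL none of these settings took any.

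With the replicate number as a block the counts of the 32 genes stayed at 0. Those of the other lists became 1 for statin and 0 for statin minus nLDL. Of all genes, 2.21% passed for statin and 2.42% for statin minus nLDL with the block, against 3.75% and 3.51% without it. For nLDL minus control 0% of all genes passed with the block. The dimmer TFEB probe set no longer passed over nLDL with the block (limma adjusted p = 0.057) or with the compared groups alone (0.078), and both CTSC probe sets that passed also passed with the block (0.024 to 0.036). Arrays of the same number deviated together with r of 0.02 (statin and control), 0.05 (nLDL and control) and 0.09 (statin and nLDL) across probe sets. The labels give a replicate number only, and whether same-numbered arrays share a day or batch was not tested. The probe sets of CTSC and TFEB were followed after their calls were seen.

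Of 10 alternatives, 3 can change a difference at all (both scalings and the mean over probe sets), and of the 99 values of the 11 named genes under them 87 kept their direction. With another quantile normalization LAMP1 turned to 0.016 (statin), 0.0045 (nLDL) and 0.011 (statin minus nLDL), and PSAP with nLDL to 0.00016. With centring NEU1 with statin became -0.00062 and CTSH with nLDL -0.0072. With the mean over probe sets LAMP1 became 0.036 with statin and 0.047 against nLDL, CTSB with statin -0.10, and CTSC, ARSB and TFEB with nLDL 0.022, 0.030 and -0.029. With 1 array of a compared group left out, 117 of 132 values kept their direction. The others belonged to CTSZ (-1.07 to 0.341 for statin, -0.0681 to 0.152 for nLDL, -1.12 to 0.299 for statin minus nLDL), LAMP1 (-0.0263 to 0.00695, -0.033 to 0.0244 and -0.0341 to 0.0232, in the same order), MCOLN1 for statin minus nLDL (-0.242 to 0.0603), and CTSH (-0.0285 to 0.046), CTSC (-0.084 to 0.00115) and TFEB (-0.0852 to 0.252) for nLDL. The cause of these changes was not tested.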
